A study of Homo sapiens with 10 samples.

Results

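The genes described here build membrane microdomains, the caveolae and the flotillin domains of the plasma membrane, in 2 lung cancer cell lines given estrogen for 3 h. They are CAV1, CAV2, CAVIN1, CAVIN3, EHD2, FLOT1, FLOT2 and PACSIN2, 8 of the 19775 genes that a probe set of the array names alone. A probe set is a group of short array probes read as 1 value, and 21 probe sets name 1 of these genes and no other. The genes were taken because such domains have been proposed as sites of membrane estrogen signalling, and the choice names no threshold on a measured value, although earlier results of these data were known when it was made.

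Gene expression was measured on 10 Affymetrix arrays, 1 for each of 5 treatments in each of 2 human non-small cell lung cancer lines. A549 is an adenocarcinoma line, and HTB-182, also known as H520, is a squamous cell line. The series asked which early effects of estrogen start at receptors of the plasma membrane. Serum was stripped with charcoal and used at 10%, for 4 h before the agents were added and for the 3 h of exposure. The 5 treatments were E2-BSA with tamoxifen (E2-BSA+TAM), E2 with tamoxifen (E2+TAM), E2-BSA, E2, and 0.1% ethanol as the vehicle. E2 is estradiol, E2-BSA is estradiol coupled to bovine serum albumin, and both were given at 1 µM. Tamoxifen, a drug that competes with estradiol for its receptors, was given at 10 µM and was used as an inhibitor. The labels list no array with tamoxifen alone or albumin alone, and the titles of the E2+TAM arrays name tamoxifen only while their source descriptions name both agents, which were followed here. The labels give no genetic alteration in any group, and each tumour type is represented by a single line.

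Caveolae are small flask-shaped pits of the plasma membrane. Caveolins sit in the inner leaflet and, together with cavins, form their coat, while EHD2 and PACSIN2 act at the neck of the pit. Flotillins, also called reggies, mark separate cholesterol-rich domains and form assemblies of their own. Caveolin-1 binds many signalling proteins and has been reported to bring estrogen receptors to the membrane in other cells.

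Each combination of line and treatment was a single array, so treatments were compared over both lines and lines over the 5 treatments. No combination had a replicate array, so every p-value measures the spread of arrays around the fitted line and treatment terms. Part of that spread may be technical, and a response of 1 line alone adds to it. Median intensities per array ran from 17.5 to 21.4. The A549 vehicle array stood apart: 263 of 12979 genes were 2-fold or more off the average of its line there, against 23 to 35 genes on the treated A549 arrays and 0 to 3 on the HTB-182 arrays (each array set against the other 4). Its BioC spike control read 59.0, against 233 to 442 on the treated A549 arrays, while its GAPDH 3' to 5' ratio of 1.43 lay close to their 1.45 to 1.61. The dap spike control read 51.4 on the A549 vehicle array, 371 to 604 on the treated A549 arrays and 35.5 to 138 in HTB-182. On the treated arrays it thus separated the lines, and its part in the line differences was not tested. The actin 3' to 5' ratio, a sign of RNA quality, ran from 2.66 to 3.57 in A549 and from 3.74 to 6.13 in HTB-182, with no overlap, and its part in the line differences was not tested. KRT7, a cytokeratin of glandular epithelium, averaged 3411 ± 581 in A549 and 18.1 ± 4.37 in HTB-182 (SD, 5 arrays each). SOX2, a squamous lung marker, averaged 135 ± 59.6 in A549 and 4152 ± 229 in HTB-182. The squamous marker KRT5 (26.1 in A549, 22.1 in HTB-182) and the alveolar marker NKX2-1 (17.0 and 17.9) were near or below the filter level in both lines. The summed intensity of 5 endothelial markers, a cell type rich in caveolae, ran from 83.0 to 100.01 in A549 and from 77.8 to 90.2 in HTB-182, with CDH5 at 4.14 in each line. The summed intensity of 6 fibroblast and mesenchymal markers, another cell type rich in caveolae, ran from 401 to 595 in A549 and from 97.3 to 119 in HTB-182. COL1A1 made most of that gap, at 382 ± 78.4 in A549 and 20.6 ± 1.40 in HTB-182, followed by COL3A1, at 31.8 ± 8.66 in A549 and 7.16 ± 0.76 in HTB-182, which did not pass the filter. THY1 was called higher in A549 (36.9 and 25.2, a difference of 0.35 ± 0.11 in log2, adjusted p = 0.013) and DCN did not pass the test (40.3 and 36.5), while COL1A2 (8.56 and 8.21) and PDGFRA (10.3 and 9.85) were below the filter level in both lines. The part of these markers in the line differences was not tested.

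Promoter sequence of 6 of the 8 genes, in 14 entries, was taken from RefSeq on GRCh38.p14, each entry running from 250 bases before to 50 after a transcription start. The stretches below are those of the genes that differed most between the lines, CAV1 and CAV2, and of FLOT2, which did not pass the test between them. Capitals mark the GC box (GGGCGG or CCGCCC), a match to the letters that Sp1-family factors read, and the estrogen response element half-site (GGTCA or TGACC). CAV1 and CAV2 are neighbours on chromosome 7, and the stretches shown are chr7:116524759-116525058 and chr7:116526112-116526411 for CAV1, chr7:116499488-116499787 for CAV2, all on the plus strand, and chr17:28897684-28897983 on the minus strand for FLOT2.
CAV1, upstream start: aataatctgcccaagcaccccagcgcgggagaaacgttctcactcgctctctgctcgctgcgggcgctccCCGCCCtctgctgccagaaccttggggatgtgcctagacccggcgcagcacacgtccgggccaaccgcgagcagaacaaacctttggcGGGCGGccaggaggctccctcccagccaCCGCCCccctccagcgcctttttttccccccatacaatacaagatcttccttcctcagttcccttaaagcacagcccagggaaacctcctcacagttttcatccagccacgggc
CAV1, downstream start: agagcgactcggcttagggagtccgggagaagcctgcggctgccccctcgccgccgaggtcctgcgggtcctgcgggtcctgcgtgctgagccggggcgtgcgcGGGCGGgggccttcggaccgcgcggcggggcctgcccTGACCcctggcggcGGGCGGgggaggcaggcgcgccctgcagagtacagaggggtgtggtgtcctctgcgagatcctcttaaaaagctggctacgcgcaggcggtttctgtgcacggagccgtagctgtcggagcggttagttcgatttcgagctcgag
CAV2, upstream start: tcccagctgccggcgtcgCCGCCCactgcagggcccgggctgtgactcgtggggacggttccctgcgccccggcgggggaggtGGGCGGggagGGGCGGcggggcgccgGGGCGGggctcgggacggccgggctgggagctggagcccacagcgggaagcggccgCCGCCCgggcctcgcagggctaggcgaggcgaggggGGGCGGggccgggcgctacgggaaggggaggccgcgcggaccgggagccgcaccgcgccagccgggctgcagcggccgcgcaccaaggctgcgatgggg
FLOT2: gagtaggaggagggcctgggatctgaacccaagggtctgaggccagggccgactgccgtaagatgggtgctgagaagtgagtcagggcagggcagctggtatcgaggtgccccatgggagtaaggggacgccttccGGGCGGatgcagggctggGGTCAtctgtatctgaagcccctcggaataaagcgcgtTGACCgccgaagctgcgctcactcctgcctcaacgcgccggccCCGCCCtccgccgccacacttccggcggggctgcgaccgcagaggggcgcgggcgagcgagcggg
The full palindrome GGTCANNNTGACC was in 0 of the 14 entries and in 0.0570% of 35116 promoter entries of the same length. A half-site on either strand was in 7 of the 14, against 37.4% of all entries, and a GC box in 9 of the 14, against 45.0%. The entries are not independent, since 5 of the 14 overlap another entry of their gene. Of the 7 with a half-site 5 belong to PACSIN2, which has 6 entries, so that 3 of the 6 genes had a half-site in any entry, while all 6 had a GC box. The upstream CAV1 stretch holds 3 GC boxes and no half-site. The downstream CAV1 stretch holds 2 GC boxes and 1 half-site, 109 bases before the start. CAV2 has 6 GC boxes and no half-site in its stretch, and FLOT2 has 2 of each, with half-sites 96 and 58 bases before the start. These letter matches are descriptions and not measured sites.

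The caveolins gave the widest gap between the lines among the 8 genes. CAV1, the main structural protein of caveolae, read 3311 on the A549 array with E2-BSA+TAM, 3685 with E2+TAM, 3711 with E2-BSA, 3294 with E2 and 2931 with vehicle on its brightest probe set, 212097_at. The same probe set read 11.0, 6.52, 8.90, 9.77 and 11.5 on the HTB-182 arrays in that order of treatments. Every A549 value lay above every HTB-182 value, and all 5 HTB-182 values lay below 19.7, the median intensity over the array that served as the filter level. The difference of A549 from HTB-182 was 7.06 ± 0.11 in log2(intensity + 16) (SE, adjusted p = 1.5e-12). With the HTB-182 arrays put at the filter level, the A549 mean was at least 171-fold higher. RNA was taken from whole cultures, so fewer expressing cells and less RNA per cell cannot be told apart. Its other probe set, 203065_s_at, spanned 2301 to 2979 in A549 and 10.9 to 19.7 in HTB-182, a difference of 6.46 ± 0.11.

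CAV2, the partner that forms hetero-oligomers with caveolin-1, showed the same split. Probe set 203324_s_at read 2041, 1844, 2197, 1252 and 1224 in A549 with E2-BSA+TAM, E2+TAM, E2-BSA, E2 and vehicle, against 18.5, 19.6, 18.1, 17.2 and 18.3 in HTB-182 in the same order. The difference was 5.61 ± 0.14 in log2 (SE, adjusted p = 2.9e-11), at least 84.2-fold by the bound used for CAV1. In A549 the E2 and vehicle arrays were the low ones, and in HTB-182 no array left the background range. Probe set 203323_at ran from 541 to 1459 in A549 and from 10.8 to 17.9 in HTB-182, with a difference of 5.07 ± 0.15. The remaining CAV2 probe set, 213426_s_at, stayed dim at 12.3 to 22.2 in A549 and 7.47 to 10.7 in HTB-182 and did not pass the filter.

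CAVIN1, which stabilises the caveolar coat, was higher in A549 on all 3 of its probe sets. The brightest, 208789_at, read 333, 328, 404, 393 and 216 in A549 with E2-BSA+TAM, E2+TAM, E2-BSA, E2 and vehicle, against 19.6, 37.4, 21.5, 43.9 and 23.3 in HTB-182. The groups did not overlap, the A549 vehicle array was the lowest of its line, and the difference was 2.96 ± 0.14 in log2 (SE, adjusted p = 8.6e-09). Probe set 1557938_s_at spanned 45.9 to 129 in A549 and 15.9 to 19.7 in HTB-182, a difference of 1.498 ± 0.169. Probe set 208790_s_at spanned 43.4 to 167 in A549 and 6.62 to 11.4 in HTB-182, a difference of 1.89 ± 0.21. All HTB-182 values of these 2 probe sets lay below the filter level, and by the bound used for CAV1 they were at least 4.01-fold and 3.94-fold higher in A549. CAVIN3, a cavin that binds caveolin-1 in the same coat, has 1 probe set, 213010_at, which was dim in both lines. It read 13.1, 11.0, 14.4, 23.8 and 13.2 in A549, against 9.08, 8.93, 6.89, 8.14 and 6.63 in HTB-182. Without the filter its difference was 0.36 ± 0.07 (adjusted p = 0.0017), at values of which 9 of 10 lay under the filter level.

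EHD2, an ATPase that holds caveolae at the surface, was higher in A549 on each of its 3 probe sets. Probe set 221870_at read 185, 194, 259, 331 and 273 in A549 with E2-BSA+TAM, E2+TAM, E2-BSA, E2 and vehicle, against 55.2, 35.8, 32.6, 47.8 and 32.3 in HTB-182. The lowest A549 array stood above the highest HTB-182 array, and the difference was 2.21 ± 0.15 in log2 (SE, adjusted p = 1.9e-07). Probe set 45297_at gave 169 to 281 in A549 and 17.7 to 27.1 in HTB-182, a difference of 2.61 ± 0.12. The dim probe set 205341_at gave a smaller difference of 0.38 ± 0.10 (adjusted p = 0.0046). PACSIN2, a membrane-bending protein of the caveolar neck, read 1002, 1016, 905, 1205 and 1306 in A549, against 520, 502, 491, 508 and 444 in HTB-182 on 201651_s_at. All A549 values were above all HTB-182 values, by 1.10 ± 0.10 in log2 (SE, adjusted p = 2.4e-06), and HTB-182 was well above the filter level. Probe set 1554691_a_at differed by 0.49 ± 0.13 (adjusted p = 0.0058), and 233705_at, below the filter, by 0.61 ± 0.07 in the fit without it (adjusted p = 2.6e-05).

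The flotillins read well above the filter level in both lines on their brightest probe sets, and their differences were small or did not pass the test. FLOT1 read 371, 392, 345, 483 and 556 in A549 with E2-BSA+TAM, E2+TAM, E2-BSA, E2 and vehicle, against 345, 302, 303, 281 and 342 in HTB-182 on 208749_x_at. The lines were separated by a narrow margin, with the A549 E2-BSA array level with the highest HTB-182 array to 3 digits, and the difference was 0.41 ± 0.12 in log2 (SE, adjusted p = 0.0083). Probe set 210142_x_at differed by 0.34 ± 0.11 (adjusted p = 0.017), a call that was lost when either E2 array was left out, with an adjusted p of 0.073 without the A549 array and 0.072 without the HTB-182 array. The suffix of both probe sets marks possible hybridisation to other transcripts. Probe set 208748_s_at did not pass the test, at 0.18 ± 0.11 (adjusted p = 0.20), and 213819_s_at lay at 8.38 to 12.5 on all 10 arrays. FLOT2, the partner of flotillin-1, read 147, 179, 147, 195 and 231 in A549, against 210, 180, 187, 168 and 203 in HTB-182 on 201350_at. The lines overlapped, and the difference was -0.09 ± 0.12 (adjusted p = 0.57) with a 95% interval of -0.36 to 0.18. Its other probe set, 211299_s_at, stayed below the filter level at 9.60 to 16.8.

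**Figure D1:**
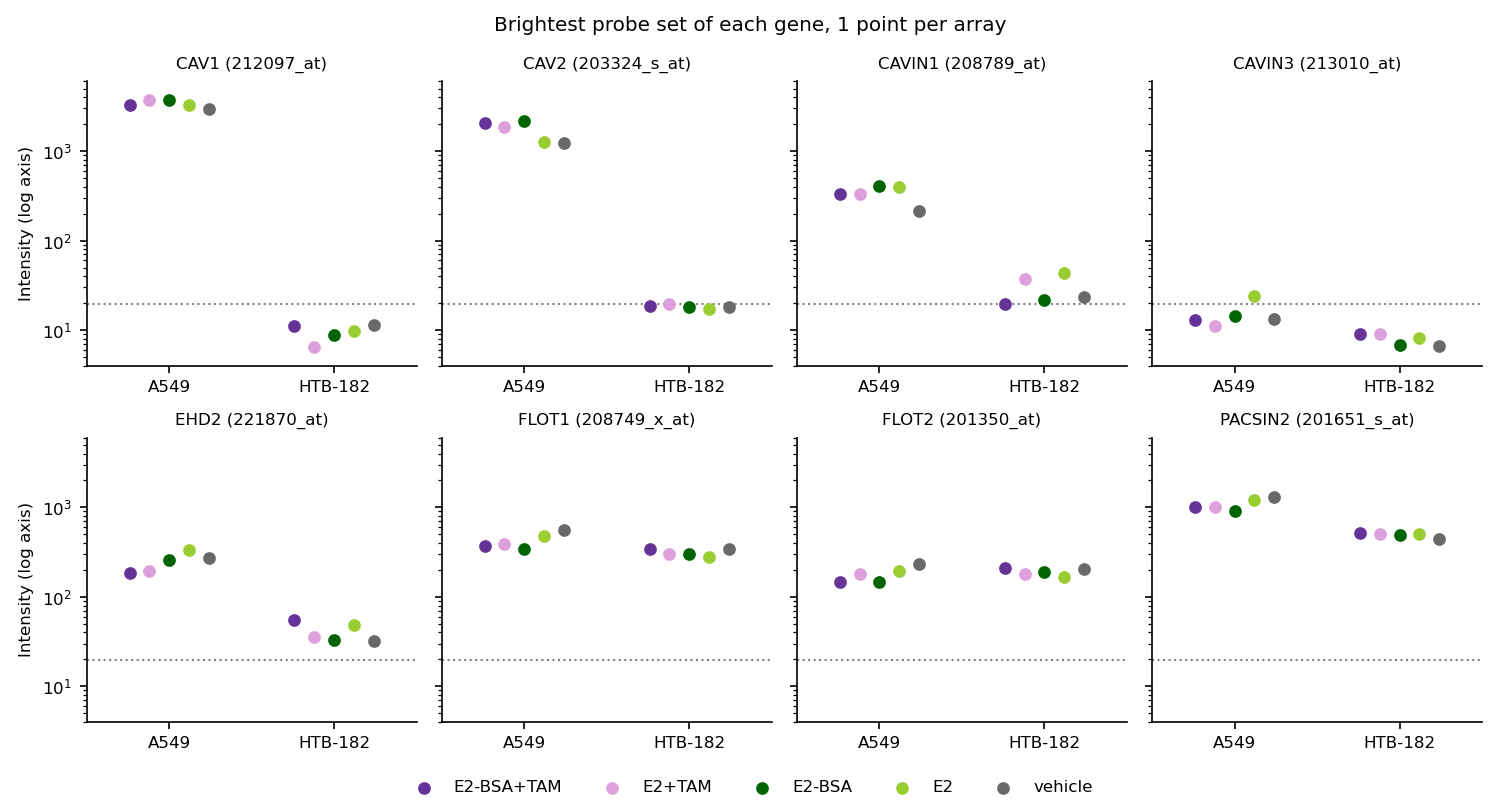
Intensity (log axis) of the brightest probe set of each gene, 1 point per array, with A549 left of HTB-182 and treatments in colour, vehicle last. The dotted line is the filter level of 19.7. CAV1 and CAV2 lie at 1224 or more on all A549 arrays and below the line on all HTB-182 arrays, while FLOT1 and FLOT2 lie between 147 and 556 in both lines.

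In all, 17 of the 21 probe sets had every A549 array above every HTB-182 array, against 19.0% of the 41091 probe sets naming 1 gene, and none had the opposite order. In 3 of the 17, CAV2 213426_s_at, CAVIN3 213010_at and PACSIN2 233705_at, no more than 2 of the 5 A549 arrays reached the filter level, so that their order lies mostly among values under it. The other 14 had all 5 A549 arrays above that level, as did 15.9% of all 41091 probe sets with the same order of the lines. The exceptions were FLOT1 208748_s_at and 213819_s_at and both FLOT2 probe sets. In the fit without a filter 17 of 21 passed the adjusted threshold of 0.05, all higher in A549 and those same dim 3 among them, against 42.5% of all probe sets called and 21.5% called higher in A549. With the filter, 16 probe sets of 7 genes were tested and 14 passed, all higher in A549, where 63.8% of 23144 probe sets passed and 31.5% passed as higher in A549. Of those 16, 6 passed the filter with an HTB-182 mean below its level, so they entered the test through A549 and their count is no support. Probe sets of 1 gene share a target and are not separate observations. The median difference over all 21 in the fit without a filter was 0.61 in log2, against 0.01 over all 41091 probe sets.

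**Figure D2:**
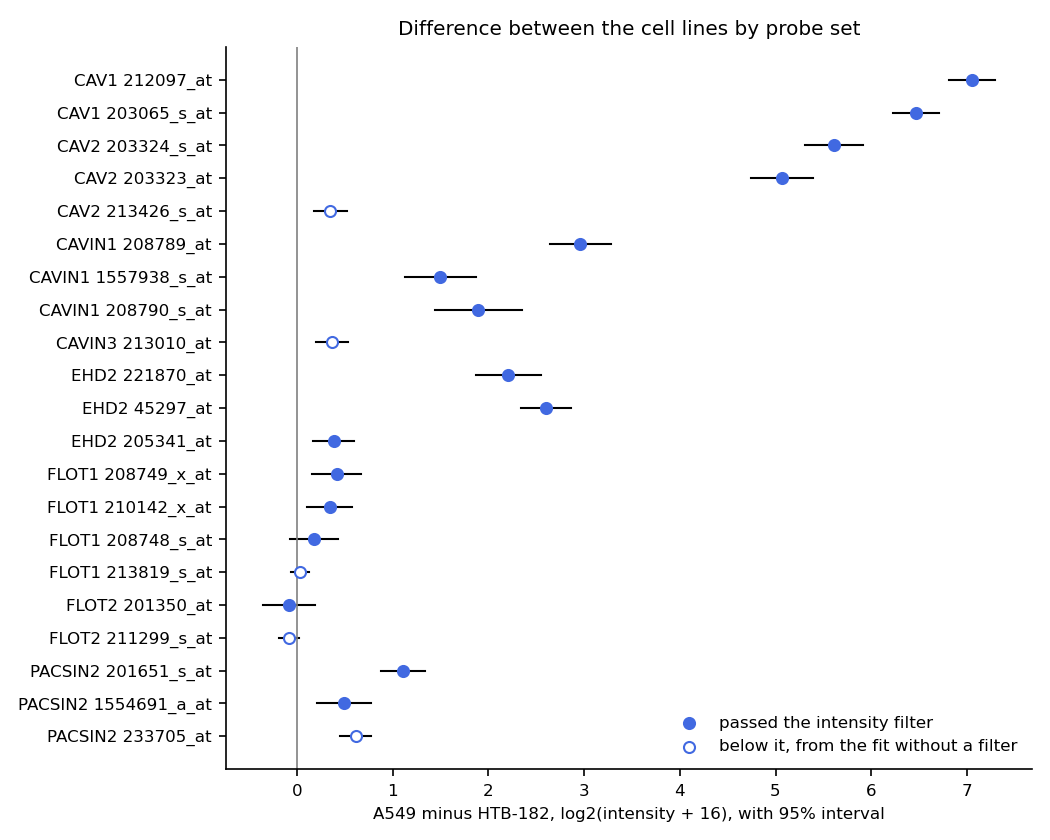
Difference between A549 and HTB-182 in log2(intensity + 16) for each of the 21 probe sets, with 95% intervals from limma over 10 arrays. Open circles are probe sets below the filter, from the fit without one. The order runs from CAV1 at 7.06 and 6.46 to FLOT2 at -0.09.

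Other genes around these domains, from lists of related proteins, were called in both directions. Among 16 relatives of the coat and flotillin families, 13 were tested by their brightest probe set, 4 were higher in A549 and 6 lower, against 33.6% higher and 31.9% lower over 12979 genes. STOM, the stomatin that belongs to the same domain family as the flotillins, averaged 2017 ± 106 in A549 and 102 ± 15.2 in HTB-182 (SD, 5 arrays each), a difference of 4.11 ± 0.10 in log2 (SE, adjusted p = 3.0e-11). CAVIN2, a cavin that shapes caveolae, ran the other way to its family member CAVIN1, at 147 ± 65.7 in A549 and 2351 ± 171 in HTB-182, a difference of -3.95 ± 0.17 (adjusted p = 3.0e-09). EHD3 and EHD1, recycling ATPases related to EHD2, were higher in A549 by 1.39 ± 0.10 and 1.17 ± 0.12. The fourth relative that was higher was ERLIN1, of the endoplasmic reticulum, at 0.84 ± 0.08, named here after its value was seen. The other 5 that were lower in A549, named after their values were seen, included close relatives of EHD2 and PACSIN2: EHD4 at -0.64 ± 0.13 and PACSIN3 at -0.60 ± 0.10. The prohibitins PHB1 and PHB2 and ERLIN2 differed by -0.45, -0.46 and -0.49. Of 16 endocytosis and trafficking genes, 9 were higher and 5 lower in A549. PRKCA, a kinase that takes part in caveolar uptake, differed by 3.57 ± 0.09, the neck-cutting dynamin DNM1 by 1.94 ± 0.13 and the amphiphysin BIN1 by 1.85 ± 0.14. The Src-family kinase FYN was lower in A549, at -3.47 ± 0.12. The other 4 that were lower, named after their values were seen, were DNM2, DNM3, YES1 and AP2M1, at -0.57, -1.62, -0.79 and -1.30, with DNM3 below the filter level on all A549 arrays.

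Over all 69 tested genes of these related lists 49 were called between the lines, against 65.5% of 12979 genes. For each list the share over all genes is 33.6% higher in A549 and 31.9% lower. Of 9 tested signalling partners of caveolae, 7 were higher in A549 and 2 lower. TGFBR2, a TGF-beta receptor, averaged 1489 ± 21.9 in A549 and 16.1 ± 1.54 in HTB-182, a difference of 5.55 ± 0.09 (adjusted p = 2.5e-12). All its HTB-182 values were below the filter level, so that it was at least 75.4-fold higher in A549. The growth factor receptors IGF1R and EGFR were higher in A549 by 4.40 ± 0.12 and 3.80 ± 0.11, and ROR1, a receptor-like protein reported to act as a caveolar scaffold, by 2.35 ± 0.29. IGF1R and ROR1 were also below the filter level on all HTB-182 arrays, which gives at least 23.1-fold for IGF1R and at least 4.17-fold for ROR1, whose A549 level passed the filter on 4 of 5 arrays. SLC2A1 and PTPN11 were the 2 that were lower, at -0.68 and -0.56, and are named after their values were seen. Of 16 genes of the membrane estrogen receptor machinery, 3 were higher and 2 lower. They were the adaptor SHC1 (2.44 ± 0.08), the scaffold STRN (0.37 ± 0.10) and PELP1 (0.33 ± 0.12, named after its value was seen), against the thioesterase LYPLA1 (-0.75 ± 0.15) and the G protein subunit GNAI1 (-0.38 ± 0.11). The receptors themselves, named after their values were seen, were near the filter level on their brightest probe sets. ESR1 averaged 23.0 ± 3.18 in A549 and 20.3 ± 3.69 in HTB-182, ESR2 28.2 ± 9.40 and 27.8 ± 1.49, and GPER1 24.7 ± 3.96 and 23.4 ± 5.07 (SD, 5 arrays each). Of 15 tested raft lipid and adaptor genes, 9 were higher and 2 lower, led by the sphingomyelin synthases SGMS2 (2.68 ± 0.17) and SGMS1 (1.70 ± 0.25) and the cholesterol exporter ABCA1 (2.40 ± 0.11), which was below the filter level on all HTB-182 arrays and at least 5.11-fold higher in A549. The ubiquitin ligase CBL (-1.44 ± 0.13) and GGPS1 (-0.48, named after its value was seen) were the lower ones.

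No probe set of the 8 genes passed the test for a treatment effect over both lines. In each of the 4 comparisons with vehicle 0 of the 16 tested probe sets passed, as did 0.00% of all 23144, while 2024 probe sets had an unadjusted p under 0.05 for E2-BSA+TAM, 1080 for E2+TAM, 1569 for E2-BSA and 1117 for E2. Among the 16, the unadjusted p was under 0.05 for 2 probe sets in each of the 4. The 4 comparisons share the same pair of vehicle arrays. The 95% intervals of the 16 probe sets, not adjusted for the number of tests, reached 1.26 to 1.64-fold to either side of their estimates. Estimates smaller than the reach of their own interval could not be told from 0 even before adjustment. Larger ones also failed after it, such as 1.83-fold for CAV2 203323_at with E2-BSA+TAM (limma, adjusted p = 0.56).

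CAV2 203323_at had the highest estimates of the 16 in 3 of the 4 comparisons, at 0.87 ± 0.23 in log2 for E2-BSA+TAM, 0.62 ± 0.23 for E2+TAM and 0.79 ± 0.23 for E2-BSA, with 0.49 ± 0.23 for E2 (SE, adjusted p = 0.56, 0.79, 0.66 and 0.90). Its A549 arrays read 1459, 1086, 1346 and 973 with E2-BSA+TAM, E2+TAM, E2-BSA and E2, against 541 with vehicle. Its HTB-182 arrays read 17.9, 15.8, 16.8 and 13.8, against 10.8 with vehicle, all below the filter level, so only the A549 arrays show an order. The vehicle array was the lowest of them. CAVIN1 208789_at had estimates of 0.22 ± 0.23, 0.51 ± 0.23, 0.40 ± 0.23 and 0.71 ± 0.23 in the same order (adjusted p = 0.72, 0.79, 0.66 and 0.90). Its E2 and E2+TAM arrays were above vehicle in both lines, and its other arrays only in A549. For CAV1 212097_at the estimates lay between 0.02 and 0.10 with SE 0.17. They average A549 pairs of 0.18, 0.33, 0.34 and 0.17 with HTB-182 pairs of -0.03, -0.29, -0.14 and -0.09, in the same order. The HTB-182 values of CAV1 were all below the filter level, so these estimates do not describe A549 alone. For PACSIN2 201651_s_at the estimates lay between -0.19 and 0.04 with SE 0.16. FLOT1 208749_x_at lay at -0.28, -0.33, -0.41 and -0.23 with SE 0.18, and FLOT2 201350_at at -0.28, -0.25, -0.36 and -0.24 with SE 0.19. The median over all probe sets tested was -0.07, -0.06, -0.07 and -0.05.

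Within A549 the vehicle array lay outside the range of the treated arrays for 14 of the 16 probe sets, below it for 8 and above it for 6. The same held for 64.8% of all probe sets tested in A549, and it was the array that stood apart over all genes. In HTB-182 the vehicle array lay outside the treated range for 6 of the 16, against 41.8% of all, but the 5 arrays lay below the filter level for 6 of the 16, where such an order means nothing. In A549 the 4 treated arrays averaged above vehicle by 1.13 in log2 for CAV2 203323_at, 0.55 for CAV2 203324_s_at and 0.25 for CAV1 212097_at. The CAVIN1 probe sets averaged above vehicle by 0.71, 0.80 and 0.86. EHD2 45297_at averaged below it, at -0.52, as did FLOT1, FLOT2 and PACSIN2 on their brightest probe sets. In HTB-182 none of the 16 reached 1.5-fold, while 4 did in A549, where 10.5% of all probe sets tested did. These within-line values rest on 1 vehicle array and have no replicate check.

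Without the HTB-182 vehicle array, the A549 array alone stood for vehicle and 2967 probe sets passed for E2-BSA+TAM, 2150 for E2+TAM, 2716 for E2-BSA and 1454 for E2, or 12.8%, 9.29%, 11.7% and 6.28% of all tested. CAV2 203323_at then passed in all 4 comparisons, at 1.31, 1.05, 1.23 and 0.93 in log2 (adjusted p = 0.00067, 0.0042, 0.0011 and 0.011). CAVIN1 1557938_s_at passed for both E2-BSA treatments, 208790_s_at for E2-BSA+TAM and E2, 208789_at for E2, and EHD2 45297_at was lower with E2-BSA+TAM and E2+TAM, which made 4, 2, 2 and 3 of the 16 in the order of the treatments. Without the A549 vehicle array, 0 of the 16 passed in any comparison with vehicle. In that fit 0 probe sets in all passed in 3 of the comparisons and 2 passed for E2. The part of the A549 vehicle array in these values was not tested beyond leaving it out. Each of these 2 fits keeps 1 vehicle array, which is fitted exactly. Its own deviation therefore does not enter the spread behind the adjusted p.

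**Figure D3:**
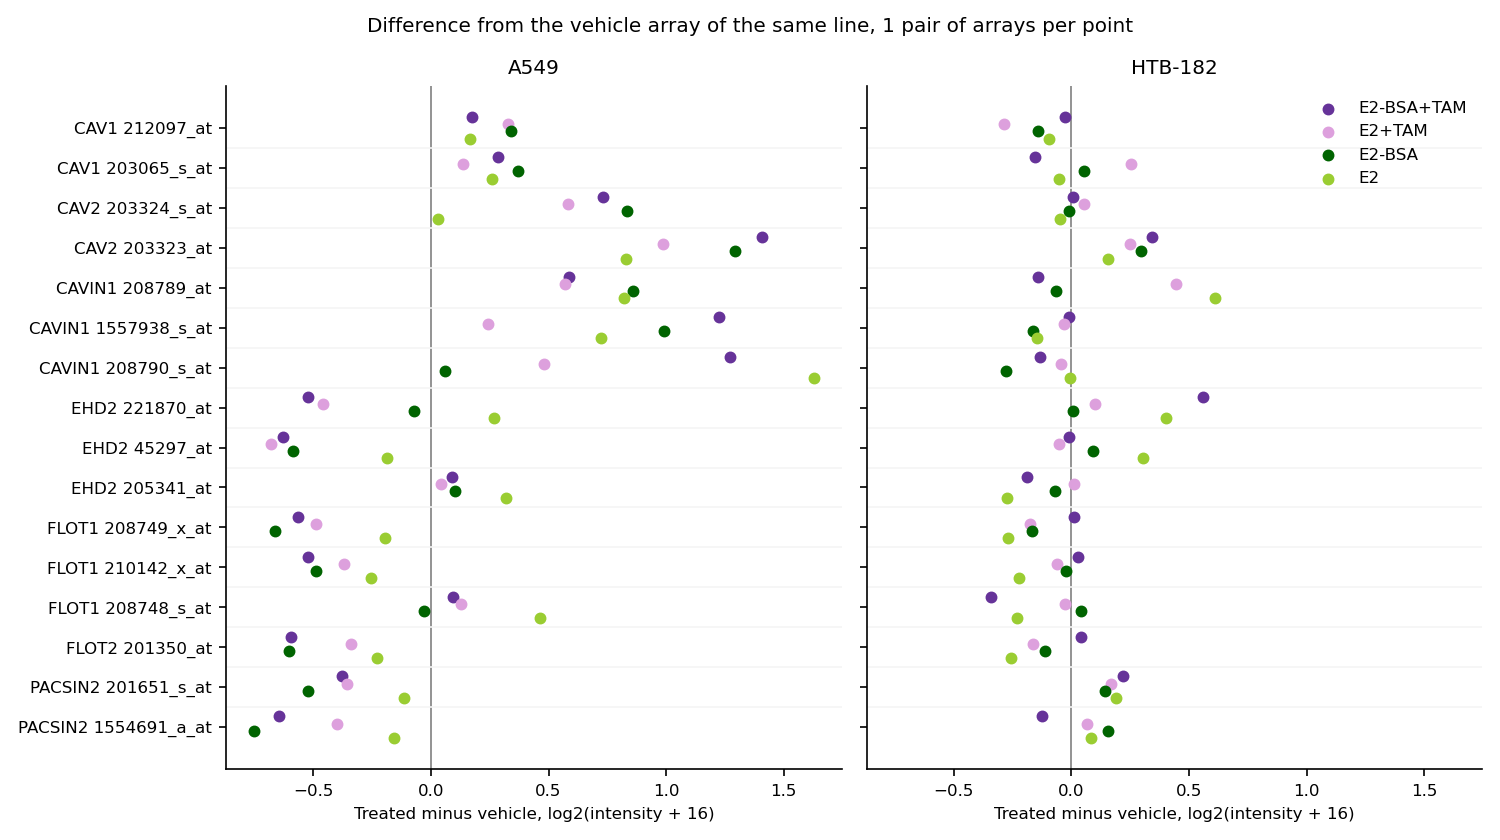
Difference of each treated array from the vehicle array of its line in log2(intensity + 16) for the 16 tested probe sets, A549 left and HTB-182 right. Each point is 1 pair of arrays. In A549 the CAV2 and CAVIN1 points lie above 0, up to 1.63 for CAVIN1 208790_s_at with E2, and the FLOT2 and PACSIN2 points lie below 0.

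Estradiol coupled to albumin and free estradiol, which differ by the protein carrier, were given at the same dose and time. Between E2-BSA and E2, 0 of the 16 probe sets passed, as did 0.00% of all, with 834 probe sets and 1 of the 16 at an unadjusted p under 0.05. That one was CAVIN1 208790_s_at, which read 45.9 in A549 with E2-BSA, against 167 with E2, and 6.62 in HTB-182, against 11.3, both below the filter level, for a difference of -0.92 ± 0.33 in log2 (SE, adjusted p = 0.99). The other CAVIN1 probe sets did not follow it, at -0.32 ± 0.23 and 0.13 ± 0.27. CAV2 203324_s_at read 2197 in A549 with E2-BSA, against 1252 with E2, while both HTB-182 values, 18.1 against 17.2, were below the filter level, and its estimate was 0.42 with a 95% interval of -0.06 to 0.90. For CAV1 212097_at the estimate was 0.06 (-0.32 to 0.44), for FLOT1 208749_x_at -0.18 (-0.58 to 0.22) and for FLOT2 201350_at -0.11 (-0.54 to 0.31). The intervals of 15 of the 16 stayed within 2-fold to either side of equality. For 6 of the 16, every HTB-182 array lay below the filter level, so their estimates average A549 with background. Such intervals do not bound a change in A549 alone. CAV2 203324_s_at, 1 of them, differed by 0.80 in log2 in the A549 pair and by 0.04 in the HTB-182 pair.

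Adding tamoxifen to either estrogen was measured over 4 pairs of arrays. It moved 0 of the 16 past the threshold and 0.00% of all probe sets, with 392 of all and 0 of the 16 at an unadjusted p under 0.05. The estimates ran from -0.25 for EHD2 45297_at to 0.14 for CAV2 203324_s_at, and all 16 intervals stayed within 2-fold. For 6 of the 16, every HTB-182 array lay below the filter level, so their intervals do not bound a change in A549 alone. EHD2 45297_at was lower with tamoxifen in 4 of 4 pairs (-0.25 ± 0.13, SE), as was CAVIN1 208789_at (-0.19 ± 0.16), although some of their HTB-182 values lay under the filter level. The adjusted p of each was 1.00. CAV2 203323_at, at 0.10 ± 0.16, could show a direction only in its A549 pairs, where it read 1459 with E2-BSA+TAM, against 1346 with E2-BSA, and 1086 with E2+TAM, against 973 with E2. CAVIN1 208790_s_at spread most, with the A549 arrays at 127 with E2-BSA+TAM, against 45.9 with E2-BSA, and at 67.0 with E2+TAM, against 167 with E2.

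**Figure D4:**
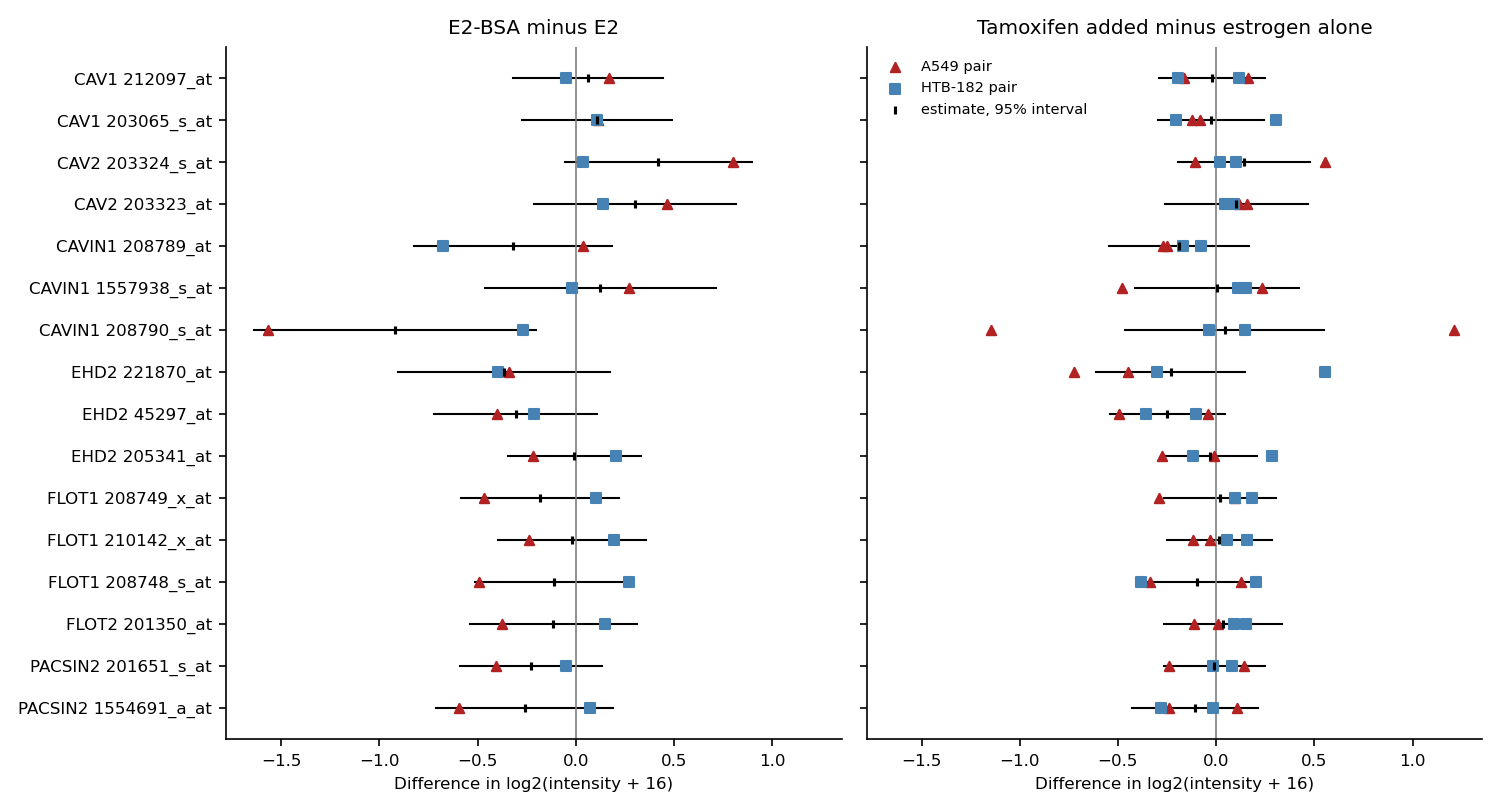
Left, E2-BSA minus E2. Right, tamoxifen added minus estrogen alone, both in log2(intensity + 16) for the 16 tested probe sets. Triangles are A549 pairs, squares HTB-182 pairs, and bars the limma estimate with its 95% interval. Of the left intervals 1 leaves out 0 (CAVIN1 208790_s_at) and of the right intervals none does.

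The difference between the lines in their tamoxifen effect passed for 0 of the 16 and for 0.00% of all, with 484 of all and 1 of the 16 at an unadjusted p under 0.05. That one was EHD2 221870_at, which read 185 and 194 in A549 with E2-BSA+TAM and E2+TAM, against 259 and 331 with E2-BSA and E2. In HTB-182 it read 55.2 and 35.8, against 32.6 and 47.8, and the line difference in effect was -0.75 ± 0.24 in log2 (SE, adjusted p = 0.98). The difference between the lines in the effect of estrogen without tamoxifen against vehicle passed for 1.91% of all probe sets, 389 with a higher value in A549 and 53 with a lower one, and for 0 of the 16. Its p rests on 1 vehicle array per line. Both vehicle arrays are fitted exactly there, so their own deviations do not enter the spread behind the p. The lowest adjusted p among the 16 belonged to CAVIN1 1557938_s_at, at 1.01 ± 0.32 (adjusted p = 0.12), followed by CAV2 203323_at at 0.83 ± 0.31 (0.21) and CAVIN1 208790_s_at at 0.99 ± 0.37 (0.24). For CAV1 212097_at it was 0.37 ± 0.29, for FLOT1 208749_x_at -0.21 ± 0.29 and for PACSIN2 201651_s_at -0.48 ± 0.25. Leaving out 1 treated array at a time let 1 to 4 of the 16 pass, all of CAVIN1 and CAV2 apart from PACSIN2 201651_s_at at -0.66. Without either E2 array, CAV2 203323_at and 203324_s_at, CAVIN1 1557938_s_at and PACSIN2 201651_s_at passed, as did 11.1% of all probe sets without the A549 array and 10.8% without the HTB-182 array. Without either E2-BSA array only CAVIN1 208790_s_at did, beside 3.10% and 3.04% of all. Without any 1 tamoxifen array CAVIN1 1557938_s_at and 208790_s_at did, beside 2.00% to 2.04% of all.

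Among 69 tested related genes, 3 passed this last comparison, against 252 of 12979 genes (1.94%) by brightest probe set, and are named after their values were seen: ROR1, the kinase YES1 and SGMS1. The ranges below cover all treated arrays of a line, those with tamoxifen included, while the comparison sets only the arrays without tamoxifen against vehicle. ROR1 read 83.5 to 171 on the treated A549 arrays, against 15.7 with vehicle, and 4.11 to 5.14 in HTB-182, against 4.57, all below the filter level, for a difference of 2.03 ± 0.29 in log2 (SE, adjusted p = 1.0e-04). YES1 read 385 to 1011 on the treated A549 arrays, against 251 with vehicle, and 994 to 1139 in HTB-182, against 1184, for a difference of 1.43 ± 0.32 (adjusted p = 0.013). SGMS1 read 191 to 454 on the treated A549 arrays, against 101 with vehicle, and 65.9 to 81.8 in HTB-182, against 74.7, for a difference of 1.39 ± 0.33 (adjusted p = 0.024). In each of these genes the A549 vehicle array was the lowest of its line, as it was for both CAV1 probe sets, the 2 bright CAV2 probe sets and all 3 of CAVIN1. No gene of the coat and flotillin relatives or of the membrane estrogen receptor machinery passed.

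Across the 5 A549 arrays the genes fell on either side of the line mean. The vehicle array was the lowest for CAV1, for CAV2 on both bright probe sets, for CAVIN1 on all 3 and for the dim EHD2 205341_at. It was also the lowest for FLOT2 211299_s_at, whose values all lay below the filter level. The vehicle array was the highest for EHD2 45297_at, for the dim CAV2 213426_s_at, for FLOT1 on both bright probe sets, for FLOT2 201350_at and for PACSIN2 on all 3. Over all probe sets tested it was the highest of its line for 46.8% and the lowest for 18.1%. The range over the A549 arrays, as highest over lowest intensity, was 1.27-fold for CAV1 212097_at, 1.44-fold for PACSIN2 201651_s_at, 1.61-fold for FLOT1 208749_x_at, 2.70-fold for CAV2 203323_at and 3.86-fold for CAVIN1 208790_s_at. In HTB-182, where most caveolar values are at background, it was 1.17-fold for PACSIN2 201651_s_at, 1.23-fold for FLOT1 208749_x_at and 1.25-fold for FLOT2 201350_at.

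**Figure D5:**
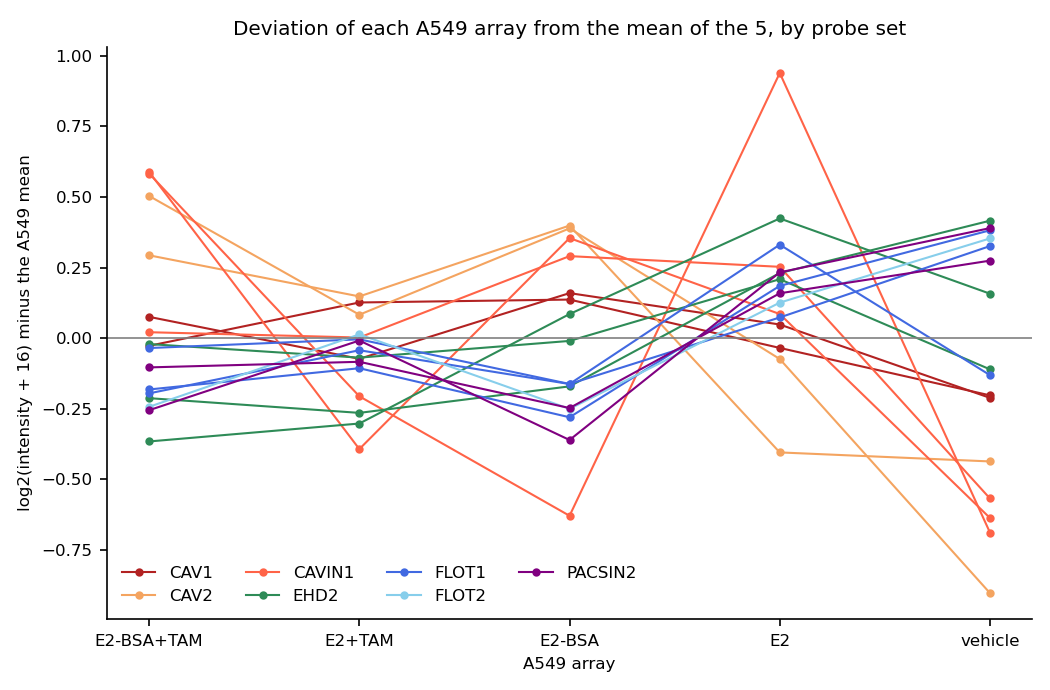
Deviation of each A549 array from the mean of the 5 in log2(intensity + 16), 1 line per tested probe set, coloured by gene, with vehicle at the right. On the vehicle array the CAV1, CAV2 and CAVIN1 lines lie below 0, and the FLOT2 and PACSIN2 lines lie above it.

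The genes whose pattern over the 10 arrays was most like that of CAV1 212097_at, by Pearson's r after subtracting each line's mean, were FBXO6 (0.91), CIMIP2C (0.90), LINC00582 (0.88), CHRNB2 (0.88) and ACTL10 (0.87). For CAVIN1 208789_at they were PHLDA1 (0.90), RDM1 (0.90), NAPSA (0.89), HFE (0.89) and DPY19L4 (0.85). None of the other 7 genes described here was among the 5 closest to either. All 5 HTB-182 values of CAV1 212097_at lay below the filter level and carry no order, so its r partly follows background. The 10 points share the same arrays, the A549 vehicle array among them, and the genes were the closest of 12979, so the values are a description.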

How the data were processed

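Total RNA of 10 cultures was hybridised to Affymetrix arrays, 1 per cell line and treatment. The authors deposited intensities on a linear scale as 1 table, made with MAS5 per the submitters' processing notes. The sources used here give neither its version nor a scaling target, and the arrays' trimmed means ran from 105 to 115. Groups were taken from the source descriptions.

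From the deposited intensities, log2(intensity + 16) was computed, and differences on this scale understate the change of dim genes. Of 54675 probe sets, 62 controls were left out. The platform annotation gives 41091 of the others 1 gene, 1801 several and 11721 none, and 1-gene probe sets with a mean log2 at or above the median of all (an intensity of 19.7) were tested, 23144 in all. limma 3.58.1 in R 4.3.3 (lmFit, eBayes with an intensity trend, Benjamini-Hochberg over all tested probe sets, threshold 0.05) fitted line and treatment as additive factors with 4 residual degrees of freedom, so a response of 1 line alone adds to the spread. Line by tamoxifen and line by estrogen terms left 3 and 2. The procedure was tested on simulated data with a tamoxifen change equal in both lines and the same noise on every array. That test held no outlying array and no response of 1 line alone, so it does not cover them.

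The 8 genes and all lists were chosen with earlier results of these data known. Every probe set naming 1 of the 8 genes is described, the brightest by mean log2 first. From each other list, counts by brightest probe set and up to 4 called genes of largest line difference are given, and the 5 genes of highest line-centred correlation for CAV1 and CAVIN1. Alternatives were another pseudocount (64 or 4), filter, scaling, feature choice, variance trend and array weights, and leaving out each array. Labels give no replicate numbers. Array number limits the precision.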

Additional observations from a re-analysis of the deposited data

How the results depend on the processing

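The line differences of the 14 called probe sets kept their direction under every alternative run, and 13 of the 14 kept their call in every one in which they were tested. The exception was FLOT1 210142_x_at, whose line difference lost its call without either E2 array. The count of probe sets called between the lines was 14762, against 9153 with the filter at the 75th percentile and 8526 with the brightest probe set per gene, where fewer features are tested. Among the 8 genes the count was 14, against 9 and 6 under the same alternatives. Leaving out each array gave 13468 to 15073 overall and 13 to 14 among the 8 genes.

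For the comparisons with vehicle, leaving out each array gave 0 to 2967 for E2-BSA+TAM (0 to 4 among the 8 genes), 0 to 2150 for E2+TAM (0 to 2), 0 to 2716 for E2-BSA (0 to 2) and 0 to 1454 for E2 (0 to 3), each highest count without the HTB-182 vehicle array. The range was 0 to 1 for E2-BSA against E2, 0 to 7 for line by tamoxifen, and tamoxifen stayed at 0. The line by estrogen count was 442, against 93 with array weights. Those weights were equal for both arrays of a treatment and lowest, at 0.35, for the vehicle arrays. They therefore cannot single out the A549 vehicle array, and their part in the count was not tested. Leaving out treated arrays gave 462 to 2560, with 1 to 4 among the 8 genes against 0. The line by estrogen term cannot be fitted without a vehicle array. The labels give no replicate numbers, so no pairing beyond line and treatment could be fitted. The additive model already matches arrays, by treatment between the lines and by line between the treatments.

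Values below the filter level of 19.7 carry no order, which limits CAV1, CAV2, CAVIN3 and the 2 dimmer CAVIN1 probe sets in HTB-182. Each treatment is 1 array per line, so a change in 1 line alone adds to the spread.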
